A study of Homo sapiens with 4 samples.

Results

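The MAGE genes analysed here are type I members of the melanoma antigen family, a set of X-linked cancer-testis antigen genes. The set was defined by gene symbol, from a list of 10 names: MAGEA1, MAGEA2, MAGEA3, MAGEA4, MAGEA6, MAGEA10, MAGEA12, MAGEB2, MAGEC1 and MAGEC2. Of these, 6 have a row among the 20329 genes used (MAGEA3, MAGEA6, MAGEA12, MAGEB2, MAGEC1 and MAGEC2), and the other 4 were not analysed here. The names were chosen with the levels in all 4 libraries known, so the levels of the 6 genes and their differences between lines and treatments are given as a description, with no test.

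The cells were BM1 and LM2, derivatives of MDA-MB-231, a human triple-negative breast cancer line. Per the labels, BM1 derives from bone metastasis and LM2 from lung metastasis. All cells carried a stably integrated lentiviral shRNA, either a non-specific one (control) or one against hnRNPM, an RNA-binding protein that takes part in splicing. The series title places the study in the splicing control by hnRNPM and ESRP1 in the epithelial-mesenchymal transition. Each line gave 1 control and 1 knockdown library of polyadenylated RNA, so 4 libraries were compared and no group has a replicate.

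Type I MAGE genes are normally expressed in germ cells and are kept silent in most adult tissues, in large part through methylation of CpG sites at their promoters. Many tumours express them again, and peptides from their products are shown on HLA class I molecules, where T cells can recognise them. MAGE proteins share a conserved MAGE homology domain through which several of them bind RING-type E3 ubiquitin ligases. MAGE-A3, MAGE-A6 and MAGE-C2 are known partners of TRIM28. Type II MAGE genes, such as MAGED1 and MAGED2, are expressed broadly in somatic tissues.

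Values are FPKM, which count fragments relative to transcript length and to the library's mapped fragments, as the authors deposited them. From the smallest steps between low FPKM values, BM1 was inferred to have about 31300000 fragments in its control and 22800000 in its knockdown library, and LM2 about 41500000 and 27300000. HNRNPM was left at 16.6% of its control level in BM1 and 15.4% in LM2. Of the markers chosen to check the cells, VIM was between 1160 and 2354 FPKM and CD44 between 155 and 223 FPKM, while ERBB2 was between 13.5 and 21.9 FPKM and EPCAM reached 4.59 FPKM at most. KRT8 lay between 398 and 1181 FPKM, KRT18 between 129 and 319 FPKM and CDH1 between 0.170 and 4.08 FPKM, each higher in the knockdown than in the control library of both lines. The fibroblast-associated genes LUM and PDGFRB reached 1.61 and 3.24 FPKM at most, and both were higher in the knockdown than in the control library of each line. The part of these marker differences in the MAGE results was not tested. The other markers (ESR1, PGR, PTPRC, CD3E, DCN, PECAM1, DDX4, DAZL and SYCP3) were looked for by symbol and had no row among the genes used, so no level is given.

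The promoters of the 6 genes were examined first for what the genes share in sequence. Windows from 250 bases before to 50 bases after each annotated start were taken from RefSeq (GRCh38.p14), and all 6 genes matched by symbol, MAGEA12 with 2 starts. The 7-base motif GGATGTG, searched on both strands, occurs in the windows of 6 of 6 genes, and in 4.29% of all 35116 windows. It was picked after the sequences had been read, and it does not overlap the other 2 motifs searched except that its last 2 letters begin TGACG in MAGEA3, MAGEA6 and MAGEA12. The motif contains GGAT, a form of the core that ETS transcription factors can bind. A match is a description of the letters and does not show that a factor binds there. Stretches around it are shown because they line up within each subfamily, with the motif in capitals and with 30 bases on either side:
MAGEA6: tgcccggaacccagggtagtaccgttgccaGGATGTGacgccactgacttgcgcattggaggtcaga
MAGEA3: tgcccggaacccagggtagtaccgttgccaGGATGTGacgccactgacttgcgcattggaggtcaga
MAGEA12: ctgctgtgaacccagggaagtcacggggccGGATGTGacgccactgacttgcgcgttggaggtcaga
MAGEC1: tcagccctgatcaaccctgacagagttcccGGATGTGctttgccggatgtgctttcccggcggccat
MAGEC2: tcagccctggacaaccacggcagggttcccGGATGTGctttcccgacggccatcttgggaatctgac
MAGEB2: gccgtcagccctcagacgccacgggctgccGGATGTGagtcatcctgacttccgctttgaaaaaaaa
In GRCh38.p14 these stretches lie at chrX:152769739-152769805 (minus strand), chrX:152698678-152698744 (plus strand), chrX:152733715-152733781 (plus strand), chrX:141903820-141903886 (plus strand), chrX:142205260-142205326 (minus strand) and chrX:30215470-30215536 (plus strand), and each is written along its gene's own strand. MAGEB2 and MAGEC1 each hold a second copy of the motif on the same strand. MAGEC1 also holds one on the opposite strand. MAGEA3, MAGEA6 and MAGEA12 continue with the same letters acgccactgacttgcgc after the motif, and MAGEC1 and MAGEC2 continue with cttt. Among the other MAGEA, MAGEB and MAGEC genes of RefSeq 9 of 17 hold GGATGTG in a window, against 0 of 7 MAGED, MAGEE, MAGEF and MAGEH genes, 0 of 9 SPANX genes and 5.17% of all genes. CSAG1, the neighbour of MAGEA12 and not a MAGE gene, also holds GGATGTG in a window. The cancer-testis genes COX7B2 and SSX1 do not.

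The MAGEA3 and MAGEA6 windows are identical over all 300 bases (0 mismatches). The shared sequence is printed once, with its 19 CG dinucleotides in capitals, because both genes have it:
MAGEA3 and MAGEA6: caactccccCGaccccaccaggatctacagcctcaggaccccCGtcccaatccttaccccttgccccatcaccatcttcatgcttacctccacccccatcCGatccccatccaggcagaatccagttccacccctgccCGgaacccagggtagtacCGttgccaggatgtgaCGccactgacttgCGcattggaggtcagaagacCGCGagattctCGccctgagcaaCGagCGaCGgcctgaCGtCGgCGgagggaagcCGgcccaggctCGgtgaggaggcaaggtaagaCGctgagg
It lies at chrX:152698544-152698843 on the plus strand for MAGEA3 and at chrX:152769640-152769939 on the minus strand for MAGEA6 (GRCh38.p14). The median over all windows was 14 CG dinucleotides. MAGEB2 had 21, MAGEC1 14, MAGEC2 10 and the first MAGEA12 window 9. Of the other motifs searched on both strands, TGACG was found in 6 of 6 genes and in 24.6% of all windows, and CGGAAG only in MAGEB2 and in 19.5% of all windows. Methylation was not measured in these libraries.

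MAGEA6 was the most abundant of the 6 genes in BM1. The gene (ENSG00000197172.6; X chromosome, 151867214 to 151870825, plus strand, in the table's coordinates, GRCh37) had 55.6 FPKM in control and 48.3 FPKM in knockdown cells of BM1, against 0.254 and 0.189 FPKM in LM2. Pairs of levels below are given in the same order, control before knockdown. Both BM1 libraries were high and both LM2 libraries were low. In the BM1 control 93.0% of the genes used had a lower level than MAGEA6, and in the LM2 control 16.7% had. The BM1 level was 219 times the LM2 level between controls and 256 times between knockdowns. On the scale of log2(FPKM + 1), used for all differences below and compressing those of low genes, LM2 minus BM1 was -5.50 between controls and -5.37 between knockdowns.

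MAGEA3 (ENSG00000221867.4; X chromosome, 151934652 to 151938240, minus strand) encodes a much used target of experimental cancer vaccines. Its level was 12.8 and 9.94 FPKM for BM1, against 0.144 and 0.0878 FPKM for LM2. The split between lines was as for MAGEA6, at a lower level. The BM1 level was 88.6 times the LM2 level between controls and 113 times between knockdowns, and the differences were -3.59 and -3.33 (log2).

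MAGEA3 and MAGEA6 are near-identical, and fragments can be hard to assign between them. Of the 100-base windows of the longest MAGEA3 transcript in GENCODE 29, 36.1% occur unchanged in a MAGEA6 transcript, and of the 50-base windows 54.5% do. How the authors' counting divided such fragments is a step not given in the sources used here, so the level of each gene is uncertain. The sum of both genes does not depend on a division between them, and it was 68.4 and 58.3 FPKM for BM1, against 0.398 and 0.277 FPKM for LM2. The ratio of MAGEA6 to MAGEA3 was 4.35 and 4.86 in BM1 and 1.76 and 2.15 in LM2. In LM2 that ratio rests on about 19 and 11 fragments in the control and about 9 and 4 in the knockdown library.

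MAGEA12 (ENSG00000213401.8; X chromosome, 151899293 to 151903184, minus strand) lies between MAGEA6 and MAGEA3. Its level was 2.69 and 1.43 FPKM for BM1, against 0.232 and 0.158 FPKM for LM2. Again both BM1 libraries were above both LM2 libraries. The difference was -1.58 between controls and -1.07 between knockdowns (log2). None of its 100-base windows, and 8.76% of its 50-base windows, occur in another MAGE transcript.

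MAGEC1 (also known as CT7) and MAGEC2 (also known as CT10) are antigens described in myeloma and melanoma among other tumours, and were low throughout. MAGEC1 (ENSG00000155495.8; X chromosome, 140991680 to 140997174, plus strand) had 2.04 and 0.804 FPKM for BM1, against 0.271 and 0.189 FPKM for LM2. MAGEC2 (ENSG00000046774.9; X chromosome, 141290131 to 141293076, minus strand) had 1.09 and 1.34 FPKM for BM1, against 0.375 and 0.332 FPKM for LM2. Each gene was higher in both BM1 libraries than in either LM2 library. The differences for MAGEC1 were -1.26 between controls and -0.60 between knockdowns, and those for MAGEC2 were -0.61 and -0.82 (log2). MAGEC2 has a single annotated transcript, and its values correspond to 68 and 61 fragments for BM1 and 31 and 18 for LM2.

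MAGEB2, a gene of the MAGE-B subfamily on the short arm of the X chromosome (ENSG00000099399.5; 30233677 to 30238206, plus strand), had the opposite pattern. Its level was 0.199 and 0.572 FPKM for BM1, against 14.2 and 27.7 FPKM for LM2. The LM2 level was 71.3 times the BM1 level between controls and 48.5 times between knockdowns, differences of 3.66 and 4.19 (log2). Both LM2 libraries were high and both BM1 libraries were low. MAGEB2 has 1 annotated transcript, none of whose 50-base windows occurs in another MAGE transcript, and its values correspond to 10 and 21 fragments for BM1 and 946 and 1218 for LM2.

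**Figure D1:**
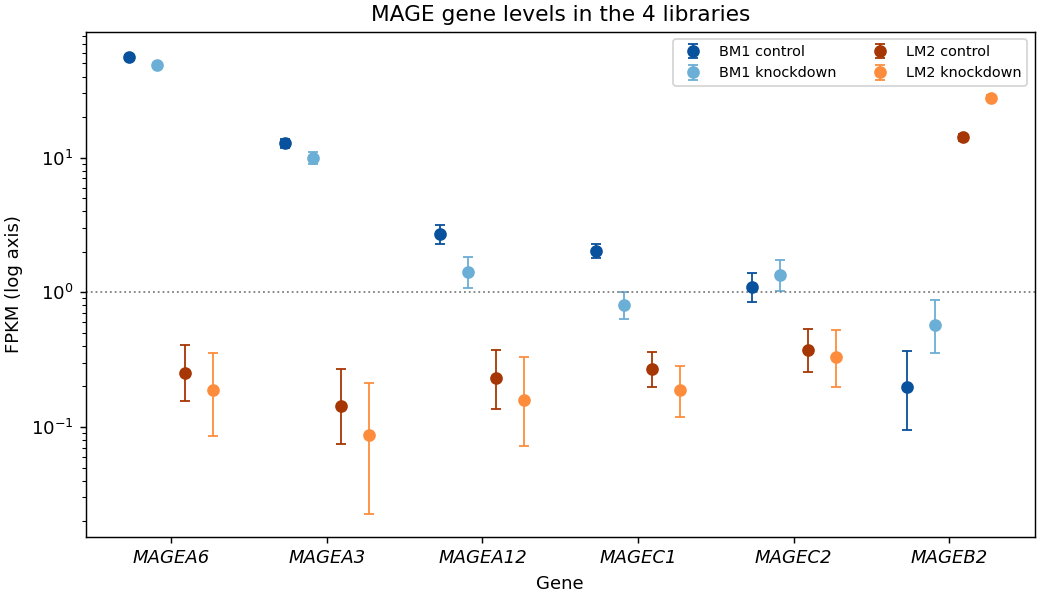
Level of each MAGE gene (horizontal axis) in FPKM (vertical axis, log scale) in the 4 libraries, 1 point per library; bars are 95% Poisson intervals of the fragments inferred from the low values and cover counting error only, and the dotted line marks 1 FPKM. The BM1 points of MAGEA6, MAGEA3, MAGEA12, MAGEC1 and MAGEC2 lie above their LM2 points, while MAGEB2 is at 14.2 and 27.7 FPKM in LM2 and under 1 FPKM in BM1.

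The lines differed in which MAGE gene had the highest level. The summed level of the 6 genes was 74.4 and 62.4 FPKM for BM1, against 15.4 and 28.7 FPKM for LM2. MAGEA6 made up 74.7% and 77.4% of the sum in BM1, against 1.64% and 0.658% in LM2. MAGEB2 made up 0.267% and 0.917% in BM1, against 91.7% and 96.7% in LM2. In the BM1 control the order from high to low was MAGEA6, MAGEA3, MAGEA12, MAGEC1, MAGEC2 and MAGEB2, and the 95% Poisson intervals of MAGEA12 (2.27 to 3.16 FPKM) and MAGEC1 (1.80 to 2.30) overlapped. In the BM1 knockdown library MAGEC2 (1.03 to 1.73) stood before MAGEC1, whose interval lay below that of MAGEC2 and did not overlap it. The MAGEC2 interval overlapped that of MAGEA12 (1.08 to 1.84). In the LM2 control the 5 genes after MAGEB2 lay between 0.144 and 0.375 FPKM, and their intervals overlapped one another, from MAGEC2 (0.255 to 0.533) to MAGEA3 (0.0751 to 0.269). These intervals use the inferred depth and the longest annotated transcript and cover counting error only, and the spread between cultures was not measured.

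Across the 6 genes, 4 were at least 2-fold lower and 1 at least 2-fold higher in LM2 between controls, beside 5.26% lower and 6.98% higher (12.2% in either direction) among the 13928 genes with a mean of at least 1 FPKM. Between knockdowns 3 were at least 2-fold lower and 1 higher, beside 4.63% lower and 4.41% higher (9.04% in either direction) of those genes. The names were chosen on these contrasts, so nothing is read from the counts. The median difference of the 6 genes was -1.42 between controls and -0.94 between knockdowns, beside 0.03 and -0.06 over the 13928 genes. MAGEC1 and MAGEC2 did not reach the mean of 1 FPKM. Of the 4 genes that did, MAGEA3, MAGEA6 and MAGEA12 reached it through BM1 alone and MAGEB2 through LM2 alone. With a pseudocount of 0.1 in place of 1, 5 genes were at least 2-fold lower in LM2 in both pairs of libraries.

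Between knockdown and control, the differences of the 6 genes lay between -0.75 and 0.92, against -5.50 to 4.19 between lines (log2). For MAGEC1 the knockdown difference in BM1, -0.75, was larger in size than the line difference between knockdowns, -0.60. None was at least 2-fold higher or lower in the knockdown library of either line, beside 16.3% of the 13928 genes in BM1 (10.1% higher and 6.2% lower) and 8.06% in LM2 (3.83% higher and 4.24% lower). These contrasts too entered the choice of the genes. The knockdown level was 86.9% of control for MAGEA6, 77.7% for MAGEA3, 53.0% for MAGEA12 and 39.4% for MAGEC1 in BM1. On the FPKM scale itself MAGEC1 is more than 2-fold lower there, which the pseudocount of 1 compresses. MAGEC2 was at 123% of control in BM1 and at 88.4% in LM2.

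MAGEB2 was higher in the knockdown than in the control library of both lines, at 288% of control in BM1 and 196% in LM2. The differences were 0.39 and 0.92 (log2). In BM1 the 2 levels rest on 10 and 21 fragments, with 95% Poisson intervals of 0.0953 to 0.365 and 0.354 to 0.875 FPKM, which overlap. In LM2 the intervals were 13.3 to 15.1 and 26.2 to 29.3 FPKM and did not overlap. The intervals cover counting error only and are no test of the knockdown. The spread between cultures was not measured. MAGEA3, MAGEA6, MAGEA12 and MAGEC1 were lower in the knockdown library of both lines, with differences in LM2 from -0.10 to -0.07 (log2).

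**Figure D2:**
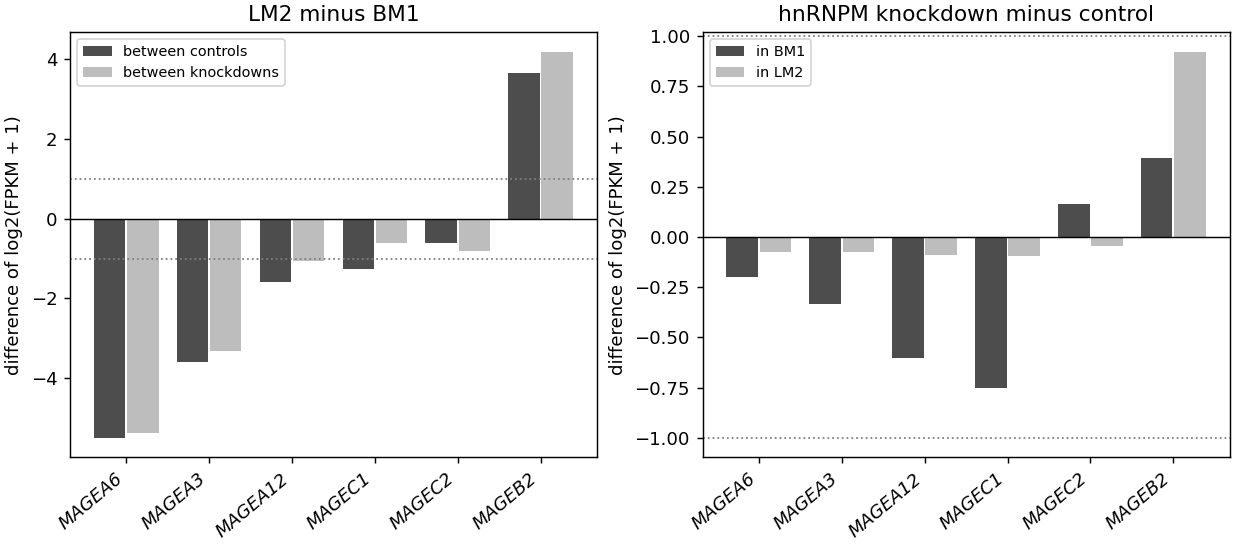
Differences of log2(FPKM + 1) for the 6 MAGE genes between lines (left, LM2 minus BM1) and between treatments (right, knockdown minus control), each bar comparing 2 libraries; dotted lines mark 2-fold. The line differences reach -5.50 for MAGEA6 and 4.19 for MAGEB2, while the treatment differences lie between -0.75 and 0.92.

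The genes around the MAGEA genes were compared next, by position in the table's coordinates. On the chromosome MAGEA12 lies between MAGEA6 and MAGEA3. GRCh38.p14 lists each of these 3 genes on the opposite strand to the table. CSAG1, a cancer-testis gene whose start lies 44 bases from that of MAGEA12 on the opposite strand, had 2.04 and 0.755 FPKM for BM1, against 0.110 and 0.113 FPKM for LM2. Its levels in BM1 were above those in LM2, as for MAGEA12, and its mean was below 1 FPKM, so it was not tested. The next genes with a mean of at least 1 FPKM are CETN2 (a centrin of the centrosome), NSDHL (an enzyme of cholesterol synthesis) and ZNF185 (an actin-associated LIM protein), which lie between 57.3 and 145 kb beyond MAGEA3. CETN2 was between 22.7 and 32.7 FPKM in all libraries, and its line difference was 0.28 ± 0.26 (log2, standard error, limma, adjusted p 0.569). NSDHL differed by -0.04 ± 0.31 (adjusted p 0.963, limma) and ZNF185 by -0.13 ± 0.29 (adjusted p 0.838, limma). Both values average opposite differences, -0.58 between controls and 0.51 between knockdowns for NSDHL, and -0.59 and 0.33 for ZNF185. None of these 3 passed the threshold.

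Within 2000 kb of the MAGEA6 start, 0 of 53 other listed genes were at least 2-fold lower and 1 was at least 2-fold higher in LM2 in both pairs of libraries. Of the 13928 genes, 1.69% were lower and 1.98% higher by that rule, so nothing particular to the region is read from the counts. The higher gene was L1CAM, a neural cell adhesion molecule, with a difference of 1.51 between controls and an average of 2.01 over both pairs, named after its values were seen. CSAG1 is among the 53, with differences of -1.45 between controls and -0.66 between knockdowns. For the 40 of these genes with a mean of at least 1 FPKM the median difference was 0.00, the lowest -0.78 and the highest 2.01 (log2, average of both pairs). Over the 459 genes on the X chromosome with that mean, the 6 MAGE genes left out, the median was 0.11, beside -0.01 for all 13928 genes.

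**Figure D3:**
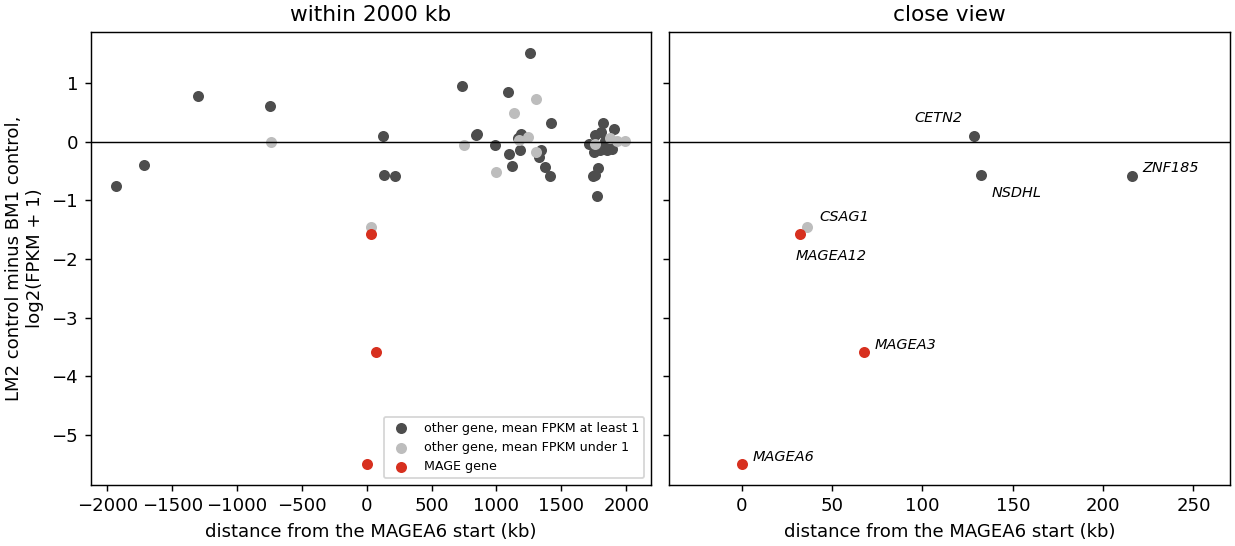
Difference of log2(FPKM + 1) between the LM2 and BM1 control libraries (vertical axis) for listed genes by distance of their start from that of MAGEA6 in kb (horizontal axis), over 2000 kb on either side (left) and close to the MAGEA genes (right). MAGEA6, MAGEA3, MAGEA12 and CSAG1 lie at -1.45 or lower, and CETN2, NSDHL and ZNF185 lie between -0.59 and 0.09.

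Around MAGEC1 the listed genes within 500 kb, MAGEC2 aside, were 3 SPANX genes, which encode sperm proteins and lie 205 kb or more away. SPANXA1 had 96.0 and 34.6 FPKM for BM1, against 2.67 and 2.31 FPKM for LM2, a line difference of -4.08 ± 0.33 (log2, standard error, limma, adjusted p 0.000647). SPANXA2 differed by -3.88 ± 0.34 (adjusted p 0.000792, limma). SPANXD had 7.78 and 4.38 FPKM for BM1, against 0.616 and 0.882 FPKM for LM2, and as it reached the mean of 1 FPKM through BM1 alone, no test is given. All 3 had lower levels in LM2, in both pairs of libraries. SPANXA1 as listed spans SPANXA2 and overlaps SPANXD, and SPANX genes are near-identical copies, so the level of each is uncertain. Near MAGEB2, IL1RAPL1 had 1.29 and 2.78 FPKM for BM1, against 0.266 and 1.51 FPKM for LM2 (line difference -0.72 ± 0.25, limma, adjusted p 0.142). GK was below a mean of 1 FPKM, with line differences of -0.01 and -0.25. Neither had the LM2-high pattern of MAGEB2.

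Among other cancer-testis genes of the X chromosome, SSX1 and the SPANX genes had higher levels in BM1 and the XAGE1 genes in LM2. Of 60 names listed, 11 matched, as 12 rows, of which 11 had a mean of at least 1 FPKM and were tested. In limma 7 were lower and 1 was higher in LM2 at an adjusted p under 0.05, beside 2.04% and 2.31% of all genes tested, and the median difference was -2.30, beside -0.01. Of the 7 lower rows, 6 are SPANX copies, so they are not independent. SSX1, SPANXC and SPANXD reached the mean of 1 FPKM through BM1 alone, where they are high, so no test is given for these 3, and 4 lower calls, all of SPANX copies, do not rest on that. The list was also chosen with earlier results of these data known. Nothing is therefore read from the count of 7 beside all genes, or from the median. CSAG1, with lower levels in LM2 too, was below that mean. SSX1, a transcriptional repressor gene known from the fusion of synovial sarcoma, had 19.5 and 7.19 FPKM for BM1, against 0.390 and 0.155 FPKM for LM2. SPANXC had 18.6 and 8.12 FPKM for BM1, against 0.867 and 1.09 FPKM for LM2. Both rows listed as SPANXB1 differed by -2.31 ± 0.25 (adjusted p 0.00222, limma). XAGE1E, named because it was the one gene called higher, had 53.1 and 37.4 FPKM for BM1, against 104 and 91.6 FPKM for LM2 (1.11 ± 0.26, limma, adjusted p 0.0486). Its copies XAGE1A and XAGE1B were at 1.05 and 0.95 and did not pass (adjusted p 0.0580 and 0.0740, limma). With a pseudocount of 0.1 or 0.5 there were 7 lower and 0 higher calls, and with size factors 7 lower and 3 higher calls. Each of these counts of 7 holds SSX1, SPANXC and SPANXD.

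The fit has 1 residual degree of freedom, and the calls change with the fit. Without the filter, or without treatment in the fit, 0 of these X-linked genes were called between lines, although 11 and 10 were at an unadjusted p under 0.05. So were 3634 of all 20329 genes without the filter and 1333 of 13928 without treatment. Leaving out 1 library also dropped treatment from the fit and left 1 library alone for a line. Those fits gave fewer calls than the main fit, and the part of the library itself cannot be told apart.

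**Figure D4:**
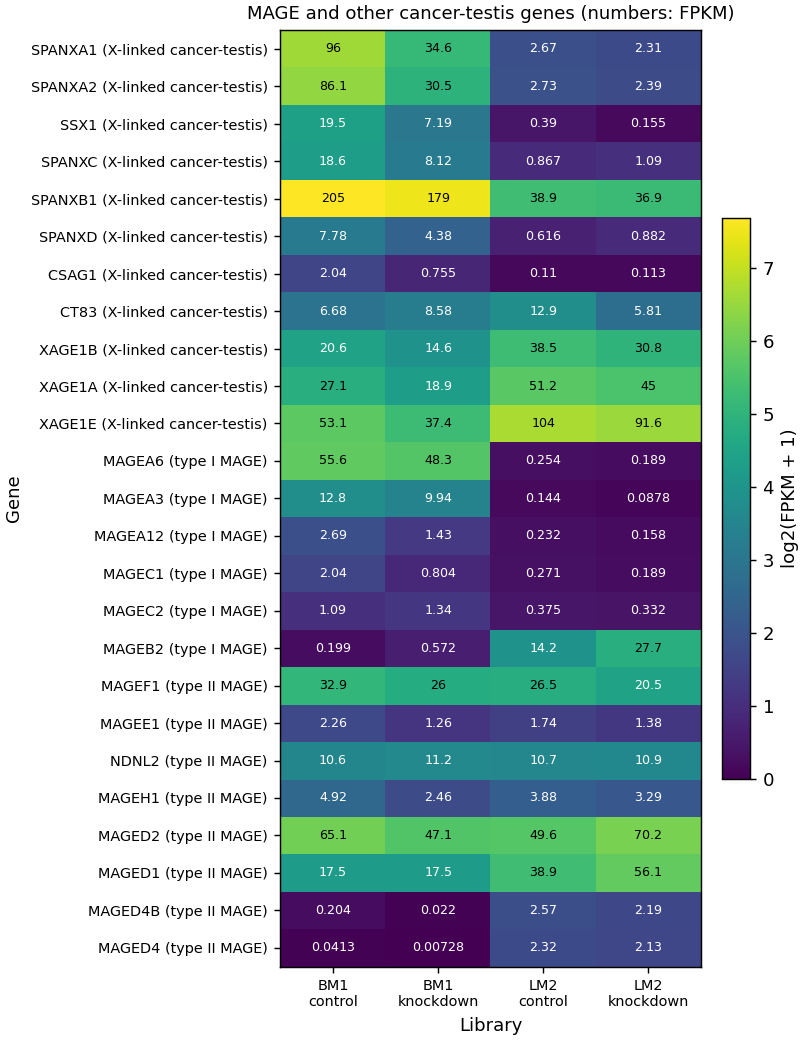
Levels of X-linked cancer-testis genes, of the 6 type I MAGE genes and of type II MAGE genes (rows) in the 4 libraries (columns), coloured by log2(FPKM + 1), with FPKM printed in each cell and 1 of the 2 SPANXB1 rows shown. The SPANX genes, SSX1 and MAGEA6 are higher in both BM1 libraries, and MAGEB2, MAGED1, MAGED4 and XAGE1E in both LM2 libraries.

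Of the type II MAGE genes, MAGED1, MAGED2, MAGEE1, MAGEF1, MAGEH1 and NDNL2 were above 1 FPKM in all 4 libraries, and MAGED4 and MAGED4B in those of LM2 alone. Of 11 names listed, 8 matched and all 8 had a mean of at least 1 FPKM. In limma 3 were higher and 0 lower in LM2, beside 2.31% and 2.04% of all genes tested, and the median difference was 0.05. MAGED1, an adaptor in neurotrophin receptor signalling, had 17.5 and 17.5 FPKM for BM1, against 38.9 and 56.1 FPKM for LM2 (1.37 ± 0.27, limma, adjusted p 0.0270). MAGED4 had 0.0413 and 0.00728 FPKM for BM1, against 2.32 and 2.13 FPKM for LM2. MAGED4B, which is a near-identical copy of MAGED4, had 0.204 and 0.0220 FPKM for BM1, against 2.57 and 2.19 FPKM for LM2. These 2 of the 3 calls reached the mean of 1 FPKM through LM2 alone, where they are high, and are not independent, so no test is given for them. MAGED2, MAGEE1, MAGEF1, MAGEH1 and NDNL2 differed by between -0.31 and 0.09 and did not pass. These are averages of both pairs of libraries, which differed in sign for all of them but MAGEF1. Without the filter, or without treatment in the fit, 0 type II genes were called, with 3 at an unadjusted p under 0.05 in limma. So were 3634 of all 20329 genes without the filter and 1333 of 13928 without treatment. Leaving out 1 library also dropped treatment from the fit, and fewer were called than in the main fit. No name matched among 16 other type I MAGE genes.

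Of the cancer-testis genes in a further list of 36 names, written as autosomal although IL13RA2 and PLAC1 lie on the X chromosome, 17 matched and 12 were tested. In limma 1 was higher and 1 lower in LM2, beside 2.31% and 2.04% of all genes tested, and the median difference was 0.02. COX7B2, a testis-expressed gene related to a subunit of cytochrome oxidase, had 50.2 and 32.7 FPKM for BM1, against 0.222 and 0.178 FPKM for LM2, and reached the mean of 1 FPKM through BM1 alone, so no test is given for it. IL13RA2, a decoy receptor for interleukin 13, had 1.02 and 1.79 FPKM for BM1, against 18.3 and 10.3 FPKM for LM2 (2.63 ± 0.33, limma, adjusted p 0.00411). CABYR differed by 0.81 (adjusted p 0.108, limma). Without treatment in the fit, 0 higher genes of this list were called, so IL13RA2 was not. Without the filter 0 genes were called, with 5 at an unadjusted p under 0.05 in limma, beside 3634 of all 20329 genes. Lower calls are not read, since the 1 in the main fit was COX7B2. Leaving out 1 library also dropped treatment from the fit, and IL13RA2 was not called there either.

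Genes with the most similar pattern to MAGEA6 and MAGEB2 were found by the distance between their 4 values of log2(FPKM + 1), each set centred on its mean. COX7B2 was nearest to MAGEA6 (distance 0.43), followed by CCL2 (0.79), a chemokine that attracts monocytes, and RP11-149I23.3 (1.29). CCL2 had 86.3 and 92.0 FPKM for BM1, against 0.127 and 0.756 FPKM for LM2. XXbac-BPG300A18.13 (0.76), LINC01234 (0.92) and MMP2 (1.01) were nearest to MAGEB2. MMP2, a secreted gelatinase, had 0.0171 and 0.0469 FPKM for BM1, against 4.07 and 13.1 FPKM for LM2. None of these 6 genes lies on the X chromosome. With 4 libraries, such a likeness holds little more than the split between lines.

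Ligases and other partners of MAGE proteins were measured beside them. All 15 names matched and were tested, and in limma 0 were called between lines (1 at an unadjusted p under 0.05), beside 4.35% of all genes tested. Of all 13928 genes tested, 3114 were at an unadjusted p under 0.05 in limma. The median difference of the 15 genes was 0.01. TRIM28, named after its values were seen because it is the ligase that MAGE-A3, MAGE-A6 and MAGE-C2 bind, had 220 and 196 FPKM for BM1, against 236 and 223 FPKM for LM2 (0.14 ± 0.25, limma, adjusted p 0.786). RNF166, LNX1 and TRIM27 had the largest line differences, of -0.68, 0.56 and -0.52.

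Genes of DNA methylation and chromatin regulation were compared between lines as well. Most of the list encode methyltransferases, methyl-CpG binders and repressors, and it also holds the activators SP1 and ETS1 and the demethylating enzymes TET1, TET2 and TET3. Of 30 names, 30 matched and 29 were tested. In limma 0 were called between lines (9 at an unadjusted p under 0.05, ETS1 among them), beside 4.35% of all genes tested, and the median difference was 0.05. Of all 13928 genes tested, 3114 were at an unadjusted p under 0.05 in limma. With size factors 1 of the 29 was called, higher in LM2, beside 592 called higher among all 13928 genes tested. UHRF1, which brings the maintenance methyltransferase to replicated DNA, had 26.4 and 13.5 FPKM for BM1, against 48.8 and 29.1 FPKM for LM2 (0.96 ± 0.25, limma, adjusted p 0.0730). EHMT1 and HDAC1 differed by 0.88 and -0.76 (adjusted p 0.0882 and 0.155, limma). DNMT1, named after its values were seen, differed by -0.13 ± 0.25 (adjusted p 0.807, limma).

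In the knockdown contrast 0 genes of any of these lists were called in limma, beside 5.47% of all genes tested (2.71% higher and 2.76% lower). With size factors there were calls, 3 genes of methylation and chromatin, 2 partner genes and 3 of the further cancer-testis genes. Of all 13928 genes tested, 1397 were called with size factors, so nothing is read from these calls. At an unadjusted p under 0.05 there were 0 type II MAGE genes, 3 X-linked and 3 further cancer-testis genes, 3 partner genes and 5 genes of methylation and chromatin. Of all 13928 genes tested, 3465 were at an unadjusted p under 0.05 in limma, so nothing is read from these counts. The 11 tested X-linked rows all had lower averages in the knockdown libraries, with a median of -0.36, beside -0.01 for all genes tested. By line, SPANXC and SPANXD were higher in the LM2 knockdown (0.16 and 0.22) and CT83 in the BM1 knockdown (0.32). At least 2-fold lower were 4 rows in BM1 (SSX1, SPANXA1, SPANXA2 and SPANXC) and 1 in LM2 (CT83), beside 6.2% and 4.24% of all genes tested. SSX1 and SPANXC reached the mean of 1 FPKM through BM1 alone, so nothing is read from these counts. Several of the 11 rows are copies of one another, and none passed the threshold.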

How the data were processed

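Polyadenylated RNA of 4 samples, 1 per cell line and treatment, was sequenced as stranded paired-end libraries, per the labels' protocols. The authors deposited 1 table of FPKM values. STAR 2.5.3a, Cuffdiff 2.2.1 and the build GRCh37 are named in the submitters' processing notes, with no role or order. The annotation and the counting's strand setting are items not given in the sources used here. Of 19671 gene IDs found in GENCODE 29, only 183 had the same position as in GRCh38.

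Of 20369 rows, 40 with repeated gene IDs were left out. Genes with a mean of at least 1 FPKM (13928) were tested on log2(FPKM + 1) with limma 3.58.1 in R 4.3.3, with terms for line and treatment, Benjamini-Hochberg adjustment over all genes and a threshold of 0.05, two-sided. This uses all 4 libraries and leaves 1 residual degree of freedom. The line pairs the libraries of a treatment contrast. No library repeats another, so the residual is how far the knockdown difference departs between the 2 lines, pooled in part over all genes. The p-values are set against that departure and measure no spread between like libraries. Nothing says that samples are independent cultures. Pairs of libraries were compared by a fixed 2-fold rule, with no test. The fit was tested on simulated data.

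Fragments behind low values were inferred from 1623 genes with a single transcript over 600 bases and a mean under 0.5 FPKM. Of their products of FPKM and length (those of at most 10 steps), 36.6% to 44.9% were whole multiples of the library's step, with a tolerance of 0.02, against 2.29% to 3.06% for other steps. Since most did not, no count test was run. Intervals are 95% Poisson intervals and cover counting error only.

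The genes and lists were chosen with earlier results of these data known. Named genes are all MAGE genes in the table, called genes of each list (up to 6) or its largest line differences (up to 3), the 3 nearest patterns to MAGEA6 and MAGEB2, and neighbours within 500 kb. Alternatives were pseudocounts of 0.1 and 0.5, no filter, size factors, a 1.5-fold rule and fits without the other factor. Each library was also left out, in fits that lacked the other factor too.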

Additional observations from a re-analysis of the deposited data

Results flagged for a closer look

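MAGEC2 differed in the direction of its knockdown change between the lines, at 0.16 in BM1 and -0.05 in LM2 (log2(FPKM + 1), knockdown minus control). The difference between the lines was not tested, since each change compares 2 libraries, and the values rest on 68 and 61 fragments in BM1 and 31 and 18 in LM2.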

How the results depend on the processing

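No difference of a MAGE gene changed sign under pseudocounts of 0.1 or 0.5, size factors, or summing MAGEA3 and MAGEA6. With a pseudocount of 0.1, LM2 minus BM1 between controls reached -7.30 for MAGEA6 and 5.58 for MAGEB2. Between knockdowns 5 of the 6 genes were at least 2-fold lower in LM2 with a pseudocount of 0.1, against 3 in the main setting, and 5 were at least 1.5-fold lower. In the BM1 knockdown 1 gene was at least 2-fold higher and 1 at least 2-fold lower with a pseudocount of 0.1, against 0 in the main setting. There 2 were at least 1.5-fold lower. In the LM2 knockdown 1 was at least 1.5-fold higher, against 0 at least 2-fold higher.

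Limma called 606 genes between lines, 216 with a pseudocount of 0.1, 0 without the filter (3634 at an unadjusted p under 0.05) and 1080 with size factors. It called 762 in the knockdown contrast, 27 with a pseudocount of 0.1, 0 without the filter (3735 unadjusted) and 1397 with size factors. In fits with no replicate block (no pairing by the other factor) there were 11 between lines and 0 in the knockdown contrast (1548 unadjusted). Leaving out 1 library gave 6 (without the BM1 control) to 28 (without the LM2 control) between lines, with 8 without the BM1 knockdown and 26 without the LM2 knockdown. In the knockdown contrast it gave 0 for each (860 to 1943 unadjusted). In the fits on 3 libraries the lone library is assumed to vary like the others. The cause of these shifts was not tested.

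At least 2-fold differences between controls numbered 1705, 2636 with a pseudocount of 0.1 and 4738 at 1.5-fold. Between knockdowns there were 1259, 2013 and 3865. In the BM1 knockdown there were 2264, and 5262 at 1.5-fold. In the LM2 knockdown there were 1123, 1824 with a pseudocount of 0.1 and 3418 at 1.5-fold.

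Depth limits the low levels most, since MAGEA3 in the LM2 knockdown rests on about 4 fragments.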
